A study of Triticum aestivum with 2 samples.

Results

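One-to-one pairs of MNase hypersensitive sites (MHSs) are open chromatin sites for which the seedling and the spikelet of common wheat each had a single called peak at the same place. A pair was formed by 1 seedling MHS and 1 spikelet MHS that overlapped by at least 1 bp, where neither overlapped a second MHS of the other tissue. In all, 173930 pairs were found. Out of 289446 seedling MHSs, 60.1% had a partner of this kind, with a 95% Wilson interval of 59.9 to 60.3, and out of 277119 spikelet MHSs 62.8% had one (62.6 to 62.9). Wilson intervals here cover counting error only. The members were chosen by the start and end positions of the called peaks, so widths and overlaps are given as a description.

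The material was wild-type 'Chinese Spring', untreated in both groups. It consisted of cross-linked whole seedlings, labelled as 10 days old and given as 9 days old and above-ground parts in the study's methods, and of spikelets at the booting stage. For each tissue, the authors merged 2 biological replicates before peak calling and deposited 1 peak list. With a single list each, the tissues could not be compared by a test, and the spread between replicates is unknown. The lists do not state the read depth. The lowest local background, a genome-wide floor that rises in proportion to the reads used, was 2.64 reads for the seedling and 2.60 for the spikelet, which puts the depths close to each other. The median pileup over each whole list was 26 reads for seedling and 31 for spikelet MHSs. Both groups are mixtures of many cell types, in which more open cells and more openness per cell cannot be told apart.

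MH-seq reads short DNA fragments, here recovered from a gel at 40 to 100 bp, that micrococcal nuclease releases from nuclei. DNA wound on nucleosomes is protected from the enzyme, whereas promoters and enhancers bound by transcription factors are often free of nucleosomes and are cut readily. Common wheat is an allohexaploid that carries the A, B and D subgenomes, and each of its 7 homoeologous groups has an A, a B and a D chromosome. Open sites held in common by a vegetative and a reproductive tissue often lie at regulatory DNA that many cell types use, while others change with development. The lists carry no gene names, and neither genes nor base sequences at the pairs were analysed here.

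Most overlapping MHSs were in such pairs, with 95.4% of the overlapping seedling MHSs and 93.2% of the overlapping spikelet MHSs. The remaining 8469 seedling and 12788 spikelet MHSs with an overlap belonged to larger groups, in which a peak of one tissue met several peaks of the other. A total of 107047 seedling and 90401 spikelet MHSs had no overlap. The larger groups looked different from the pairs, which is in part built in by the rule. A peak that meets several others has to reach across the gap between them. It is also counted once in each of its combinations. Over the 14311 overlapping combinations of larger groups, the median width was 858 bp for seedling and 403 bp for spikelet peaks. The median overlap was 30.6% of the union of both peaks, and the summits lay 296 bp apart. In the pairs, the corresponding medians were 401 bp, 373 bp, 71.1% and 53 bp. At the limit of the rule, 173 pairs overlapped by 10 bp or less, 12 of them by 1 bp. Their median widths were 283 bp in the seedling and 286 bp in the spikelet, with median folds of 3.40 and 3.71. Just outside it, 229 seedling and 255 spikelet MHSs without overlap lay no more than 10 bp from an MHS of the other tissue. Their median widths were 275 and 284 bp and their median folds 3.37 and 3.65, so the members on either side of the limit had like values.

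The peaks of a pair were seldom bounded alike, but they usually shared their core. The overlap covered a median of 84.9% of the seedling peak and 88.2% of the spikelet peak. At the 5th percentile of pairs it covered 31.1% of the union, and at the 95th percentile 93.2%. In 149902 pairs, or 86.2% (86.0 to 86.3), the overlap took in at least 50% of both peaks, and in 22571 pairs, or 13.0%, at least 90% of both. The peaks were staggered, with each reaching past the other at one end, in 54.6% of pairs. The spikelet peak lay within the seedling peak in 24.0%, and the seedling peak within the spikelet peak in 21.4%. Only 1341 pairs began at the same base and 1380 ended at the same base. Start and end were both identical in 16 pairs. The strongest of these 16, on chromosome 2D (part 1, 152026737 to 152027471), had folds of 9.09 in the seedling and 9.14 in the spikelet. Its summits were nevertheless 236 bp apart. The next lay from 389153201 to 389153624 on part 1 of 5A, with folds of 7.23 and 8.86 and summits 6 bp apart. The last of the 3 named here, on part 1 of 6A from 59342527 to 59342912, had folds of 6.90 and 8.75 and summits 14 bp apart. Identical bounds thus went with near and with distant summits.

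Seedling peaks were slightly wider than their spikelet partners. The middle 50% of widths spanned 303 to 537 bp in the seedling against 305 to 483 bp in the spikelet, and the narrowest peak had 200 bp in both. The median ratio of seedling to spikelet width was 1.03, with a 95% interval of the median from 1.03 to 1.04 by order statistics. The seedling peak was the wider one in 54.4% of pairs (54.1 to 54.6), the spikelet peak in 45.2%, and the widths were equal in 0.450%. Within single pairs the widths differed much more than this shift. The ratio of widths ran from 0.587 at the 5th percentile to 2.08 at the 95th. The direction went with the length of the union, which is itself set by the bounds of the same 2 peaks and is not independent of their widths. Among the 44184 pairs whose union spanned over 300 and up to 400 bp, the seedling peak was wider in 42.5%, and among the 11129 pairs of over 800 and up to 1000 bp it was wider in 65.0%. Ranked over all pairs, the widths of the tissues had a Spearman rank correlation of 0.495. This and the other rank correlations are descriptions over pairs from the same libraries, which are not independent replicates.

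The summit, the base with the highest pileup of reads, moved little between the tissues. The median shift was 53 bp, regardless of direction, and the middle 50% of shifts ran from 21 to 111 bp. Summits lay within 10 bp of each other in 13.6% of pairs, within 50 bp in 48.5% (48.2 to 48.7), within 100 bp in 71.2% and within 200 bp in 90.2%. They fell on the same base in 1430 pairs. Shifts had no preferred direction along the chromosome. The spikelet summit lay at the higher coordinate in 49.6% of pairs and at the lower one in 49.5%, and the mean signed shift was 0.127 bp with an SD over pairs of 134 bp. Both summits lay inside the shared stretch in 89.3% of pairs. The spikelet summit fell inside the seedling peak in 94.5%, and the seedling summit inside the spikelet peak in 92.5%.

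The number of pairs per 10-bp class of shift fell without a break from 21636 below 10 bp to 1220 between 200 and 210 bp. The slope was uneven, with a shoulder between 70 and 120 bp, where the classes still held 7616 to 5595 pairs. The first class above its predecessor was that of 210 to 220 bp, with 1275 pairs. Shifts over 200 bp occurred in 17119 pairs and shifts over 500 bp in 1839. The largest, of 1592 bp, was in a pair on part 1 of chromosome 3D. Its seedling peak ran from 352136186 to 352137453 and its spikelet peak from 352137092 to 352138321, with folds of 4.85 and 4.80 and an overlap of 362 bp. The next, of 1570 bp, was on part 2 of 7B. There the seedling peak from 211608657 to 211610709 and the spikelet peak from 211608629 to 211610648 overlapped over 95.7% of their union, while their summits lay near opposite ends. A shift of 1384 bp was found on part 1 of 7A between a seedling peak of 1580 bp from 434167345 to 434168924 and a spikelet peak of 255 bp that began at 434168746. In each of these 3 pairs at least one peak was wider than 1 kb. The median shift, which cannot exceed the union, rose from 30 bp in pairs whose union was at most 300 bp to 149 bp in those over 1000 bp.

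Strong pairs had closer summits than weak ones. When pairs were split into 10 equal classes by the mean of their log2 folds, the median shift dropped in every step, from 84 bp in the lowest class to 34 bp in the highest. The median overlap rose in every step, from 57.7% to 81.4% of the union. The share of pairs with summits within 50 bp was 34.5% in the lowest class and 64.0% in the highest. Width did not run the same way, since the stronger pairs were also wider, with seedling medians of 313 bp in the lowest and 490 bp in the highest class. Depth moved with this trend, as the median seedling pileup was 25 reads in the lowest class and 55 in the highest. Its part in the trend was not tested.

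**Figure D1:**
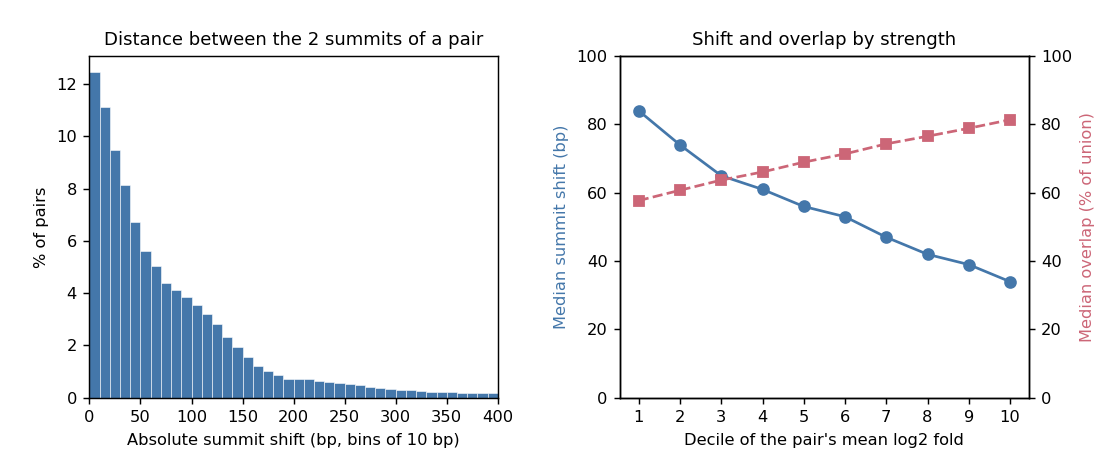
The left panel plots the percentage of pairs per 10-bp class of absolute summit shift in bp, up to 400 bp, and the right panel plots the median shift in bp (circles) and the median overlap as a percentage of the union (squares) for 10 classes of the pair's mean log2 fold. Shifts below 10 bp are the most frequent class with 12.4% of pairs, and from the weakest to the strongest class the median shift falls from 84 to 34 bp while the overlap rises from 57.7% to 81.4%.

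The fold of a peak is the peak caller's quotient of summit pileup and local background, with 1 added to each, so it is relative to the surroundings of the site. Paired MHSs had a median fold of 4.62 for seedling and 5.0 for spikelet peaks. The spikelet fold was the higher one in 59.2% of pairs. The median ratio of seedling to spikelet fold was 0.934 (0.932 to 0.936 by order statistics), and it ran from 0.576 at the 5th percentile to 1.54 at the 95th. The wider peak of a pair more often had the higher fold than the lower one, mainly where the spikelet peak was wider. Width and fold come from the same called peaks and are not independent measures. In 48823 pairs, or 28.1%, the seedling peak was wider and had the higher fold, and in 56854 pairs, or 32.7%, the spikelet peak did. The opposite was less frequent. In 45691 pairs, or 26.3%, the seedling peak was wider and had the lower fold, and in 21713 pairs, or 12.5%, this held for the spikelet peak. Over all pairs, the ratio of widths and the ratio of folds had a rank correlation of 0.354.

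Fold and p together fix the pileup at the summit and the local background, both in reads. The pileup was sought among whole numbers of reads only. The values found gave the deposited −log10 p to within 0.000186 in 100% of peaks. The median pileup of paired MHSs was 32 reads in the seedling and 35 in the spikelet. Their median local background was 6.06 reads at seedling and 5.80 at spikelet peaks. The median ratio of pileups, 0.966, was nearer to 1 than that of folds, but within pairs pileup varied more, from a ratio of 0.524 at the 5th percentile to 1.84 at the 95th. The spikelet pileup was higher in 51.8% of pairs, the seedling pileup in 44.7%, and they were equal in 3.50%. The seedling background was the higher one in 60.1% of pairs, and the median ratio of backgrounds was 1.05.

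The ranking of pairs was kept in part from tissue to tissue. Across all 173930 pairs, the Spearman rank correlation was 0.556 for fold, 0.598 for pileup, 0.517 for −log10 q and 0.821 for the local background. The share of pairs in matching deciles was highest at the extremes. Any positive rank correlation gives this, because the outer deciles have no decile beyond them. Of the pairs in the highest decile of fold in the seedling, 44.1% (7662 pairs) were in the highest decile in the spikelet. Of those in the lowest decile in the seedling, 29.2% (5078 pairs) were in the lowest decile in the spikelet. The 5th seedling decile had between 3.34% and 12.4% of its pairs in each spikelet decile. A flatter spread in the middle deciles follows in the same way and does not show weaker agreement there. Over all pairs, 19.1% had the same class in both tissues, 46.1% differed by at most 1 class and 10.9% by 5 or more. The far corners were thinly filled. In 57 pairs the fold was in the lowest class in the seedling and in the highest in the spikelet, and in 92 pairs the reverse was seen. Both peaks had a q of 1e-05 or lower in 76.9% of pairs. A further 12.6% reached it in the spikelet alone, 6.53% in the seedling alone and 3.97% in neither.

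**Figure D2:**
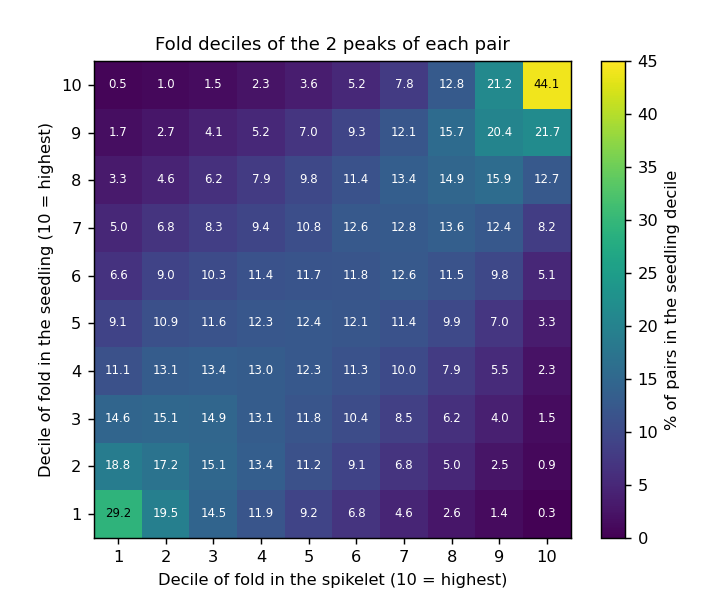
Each cell gives the percentage of pairs of a seedling fold decile (y axis) that fell in each spikelet fold decile (x axis), with decile 10 the highest. The brightest cells are the strongest pairs, with 44.1% of the top seedling decile also in the top spikelet decile, and the weakest, with 29.2%.

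The strongest pairs were taken as the 3 with the largest value of the lower of their folds, which requires a high fold in both tissues. All 3 lay on B chromosomes, which held 60601 of the 173930 pairs, and 3 picked pairs do not describe a subgenome. The first, on part 1 of 2B, had a seedling peak of 268767457 to 268767846 within a spikelet peak of 268767420 to 268767861. Its folds were 32.5 and 27.7, its pileups 172 and 186 reads, and its summits lay 15 bp apart. The second, on part 1 of 3B, had a seedling peak of 241590927 to 241591303 and a spikelet peak of 241590921 to 241591309. The folds were 24.3 and 23.5, the pileups 151 and 143 reads, and the summits were 7 bp apart. The third, on part 1 of 6B with a seedling peak from 244184956 to 244185302, had folds of 23.5 and 24.5 and summits 6 bp apart. Its pileups differed more, with 94 reads in the seedling and 144 in the spikelet, beside backgrounds of 3.04 and 4.92 reads. In all 3, the seedling peak lay wholly inside a slightly wider spikelet peak.

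Large differences in fold were rare among pairs. Membership requires a called peak in both tissues, so sites called in a single tissue could not enter. The 107047 seedling and 90401 spikelet MHSs without overlap are thus outside these shares, and the rarity is partly built in. A ratio of at least 1.5 was found in 10263 pairs (5.90%) with the higher fold in the seedling and in 21759 pairs (12.5%) with the higher fold in the spikelet, against 7.08% and 12.1% of all 188241 overlapping combinations. A ratio of at least 2 was found in 1187 pairs (0.682%) toward the seedling and in 2947 pairs (1.69%) toward the spikelet. The background shares were 1.04% and 1.66%. The 188241 combinations include the 173930 pairs themselves, so shares near each other are largely built in. In the other 14311 combinations, those of larger groups, the seedling fold was the higher one in 63.8%, against 40.7% of pairs. The seedling peak was the wider one in 79.1% of these combinations, and a long peak enters once for each peak it meets. The shares are therefore not like for like. Pairs with at least 2 times the fold in the spikelet had median pileups of 20 reads in the seedling and 47 in the spikelet over median backgrounds of 5.10 and 5.24 reads. Those with at least 2 times the fold in the seedling had median pileups of 64 and 25 reads. Both kinds occurred on all 21 chromosomes. The tissue with the higher fold also had the wider peak at the median. The widths were 528 against 330 bp toward the seedling and 308 against 408 bp toward the spikelet. Here too, width and fold come from the same called peaks. By pileup instead of fold, a ratio of at least 2 was found in 6020 pairs toward the seedling and 7240 toward the spikelet, or 3.46% and 4.16%. All combinations gave 4.25% and 4.15%. In proportion, the numbers of spikelet-high and seedling-high pairs were therefore nearer to each other by pileup than by fold.

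At a ratio of at least 3, the directions were alike in number but not in kind. There were 42 pairs toward the seedling and 44 toward the spikelet, or 0.0241% and 0.0253% of pairs, against 0.0409% and 0.0266% of all combinations. In all 44 pairs toward the spikelet, the spikelet also had the higher pileup, with medians of 16 reads in the seedling and 69 in the spikelet. In only 14 of the 42 pairs toward the seedling was the seedling pileup the higher one, with medians of 77.5 and 121 reads. The local background stood apart in these 42 pairs. Its median was 4.69 reads for seedling and 35.7 for spikelet peaks, and 31 of the 42 had a spikelet background over 2 times the median of the spikelet list. Among all pairs, 4.04% had such a spikelet background. None of the 44 pairs toward the spikelet had a background over 2 times the list median in either tissue. Where the seedling pileup was not the higher one, the definition of fold leaves only the background to give such a ratio. Why the backgrounds differed was not tested.

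The named examples show the same contrast. The largest ratio toward the seedling was 9.61, on part 2 of chromosome 1A with the seedling peak at 83152421 to 83152785 and the spikelet peak at 83152430 to 83152733. Its folds were 28.8 and 2.99, although the pileup was 114 reads for seedling and 163 for spikelet peaks. The backgrounds were 3.00 and 53.8 reads, and the summits lay 5 bp apart. The second, on part 2 of 5D with a seedling peak from 60513614 to 60513979, had folds of 28.3 and 3.21, pileups of 102 and 113 reads and backgrounds of 2.64 and 34.6 reads. The third, on part 1 of 3B with a seedling peak from 101921284 to 101921619, had folds of 14.4 and 1.89, pileups of 52 and 103 reads and backgrounds of 2.68 and 54.1 reads. In each of these 3 pairs the spikelet had more reads at the summit and the lower fold.

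Toward the spikelet, the largest ratio was 6.38, on part 1 of 7A with the seedling peak at 371667849 to 371668259 and the spikelet peak at 371668017 to 371668409. The folds were 4.12 and 26.3, the pileups 14 and 174 reads and the backgrounds 2.64 and 5.66 reads. The second, on part 1 of 2D, had folds of 4.67 and 27.9 and pileups of 16 and 184 reads, and its seedling peak from 437386974 to 437387173 had the minimum width of 200 bp. The third, on part 1 of 6B, had folds of 4.17 and 24.0 and pileups of 15 and 154 reads, and its seedling peak from 449144978 to 449145177 was also 200 bp wide. In these 3 pairs a shallow seedling peak met a tall spikelet peak, and in the second and the third it was also the narrower one. The summits of the 3 pairs lay 74, 5 and 51 bp apart.

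Pairs were spread over the subgenomes as 58035 in A, 60601 in B and 55294 in D. Per Mb of sequence up to the last MHS, this was 11.8 in A, 11.7 in B and 14 in D. The lengths were 4934, 5180 and 3951 Mb. On them the lists held 97257, 101834 and 90355 seedling MHSs and 92487, 96292 and 88340 spikelet MHSs. The whole lists were thus denser in D as well, and the higher density there was not particular to the pairs. Of the seedling MHSs, 61.2% (60.9 to 61.5) of those in D were in a pair, against 59.7% (59.4 to 60.0) in A and 59.5% (59.2 to 59.8) in B. Of the spikelet MHSs, the shares were 62.6% in D, 62.7% in A and 62.9% in B, with intervals that overlapped. Among chromosomes, the seedling share ran from 57.8% on 4A to 62.4% on 4D and the spikelet share from 61.4% on 7A to 64.4% on 4B. Shift and rank agreement hardly differed between subgenomes. The median shift was 54 bp in A, 53 bp in B and 53 bp in D, and the rank correlation for fold was 0.564, 0.549 and 0.554, within the range over single chromosomes of 0.529 on 6B to 0.580 on 4A. The spikelet fold exceeded the seedling fold at the median on all 21 chromosomes, where the median ratio ran from 0.925 on 6D to 0.941 on 2D.

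The overlap of paired peaks was lowest in subgenome A. Its median was 70.5% of the union in A (70.3 to 70.7 by order statistics), 71.4% in B (71.2 to 71.6) and 71.4% in D (71.2 to 71.6). The A chromosome had the lowest median of its homoeologous group in all 7 groups, from 69.9% on 5A to 70.9% on 6A. The difference was small for single chromosomes. The interval of the A chromosome lay below that of the B chromosome in 2 of 7 groups and below that of the D chromosome in 2 of 7. Other measures that ran the same way in most groups were the ratio of widths, highest on the A chromosome in 6 of 7 groups, and the fold. Both tissues had their lowest median fold on the D chromosome in all 7 groups. The highest spikelet median was on the A chromosome in all 7, and the highest seedling median in 5. Local background ran the other way, with the highest median on the D chromosome in all 7 groups in both tissues. The part of background in the order of the folds was not tested.

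**Figure D3:**
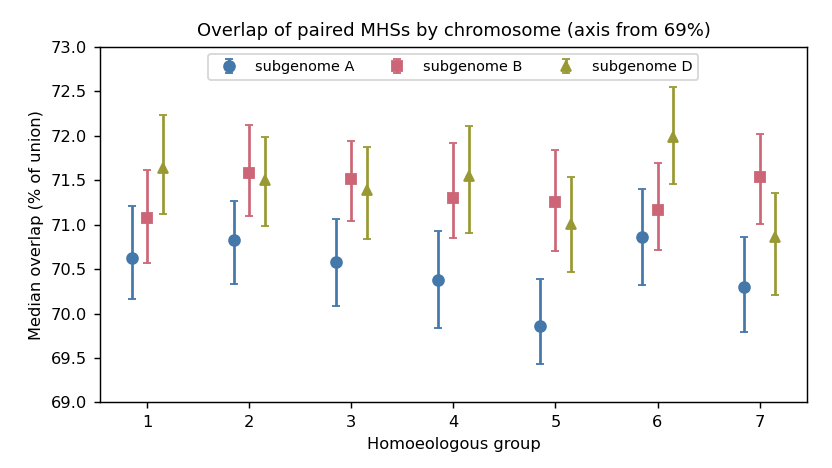
Points give the median overlap of paired MHSs as a percentage of the union (y axis, from 69%) for each chromosome, by homoeologous group (x axis) and subgenome, with 95% order-statistic intervals of the median as bars. The A chromosome is the lowest of its group in all 7 groups, by about the length of the bars or less.

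Position along the chromosome was given as the share of its length, where the end of the final MHS of either list stood for the end of each of the 2 sequence parts per chromosome. The outermost 10% at either end held 32.0% of pairs (31.8 to 32.3), where even placement would give 20%. The lists were dense there as well, with 97392 of 289446 seedling and 92906 of 277119 spikelet MHSs. Of these end MHSs, 57.2% and 60.0% were in a pair, against 60.1% and 62.8% of the whole lists. The excess over even placement was thus not particular to the pairs. Membership in a pair depended on position in a way that differed between the lists. Of the seedling MHSs between 40% and 45% of the length, 52.1% (51.0 to 53.2) were in a pair, the lowest of 20 bins, against 65.3% (64.4 to 66.1) between 65% and 70%. Of the spikelet MHSs between 40% and 45%, 63.1% (61.9 to 64.3) were in a pair. The spikelet share was lowest in the first bin, with 58.4%, and ranged from 63.1% to 65.7% between 30% and 70% of the length.

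The ranking of folds was held more closely in the chromosome interior than at the ends. The rank correlation for fold was 0.509 in the outermost 10% at either end, 0.560 in the stretches from there to 30% from an end, and 0.594 in the remaining interior. The interior had a higher rank correlation than the ends on all 21 chromosomes, with ranges of 0.546 to 0.638 in the interior and 0.477 to 0.538 at the ends, which did not overlap. In 5% bins, the rank correlation for fold was lowest in the last bin, with 0.492, and highest between 35% and 40% of the length, with 0.627. Pileup showed a smaller difference, with 0.588 at the ends and 0.615 in the interior, and it was higher in the interior on 18 of 21 chromosomes. The local background went the other way, with 0.827 at the ends and 0.811 in the interior, and was higher in the interior on 3 of 21. Folds were also more spread in the interior, with an SD of log2 fold of 0.483 in the seedling and 0.474 in the spikelet, against 0.463 and 0.450 at the ends. The part of this spread in the difference of rank correlation was not tested.

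Paired peaks at the ends were narrower and weaker. The median width was 383 bp in the seedling and 360 bp in the spikelet at the ends, and 414 and 383 bp in the interior. The median fold was 4.42 and 4.83 at the ends and 4.80 and 5.24 in the interior. Both widths and both folds were higher in the interior on all 21 chromosomes. The median overlap was 70.3% of the union at the ends and 71.5% in the interior, higher in the interior on 18 of 21. The median summit shift was 53 bp at the ends, in the intermediate stretches and in the interior.

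**Figure D4:**
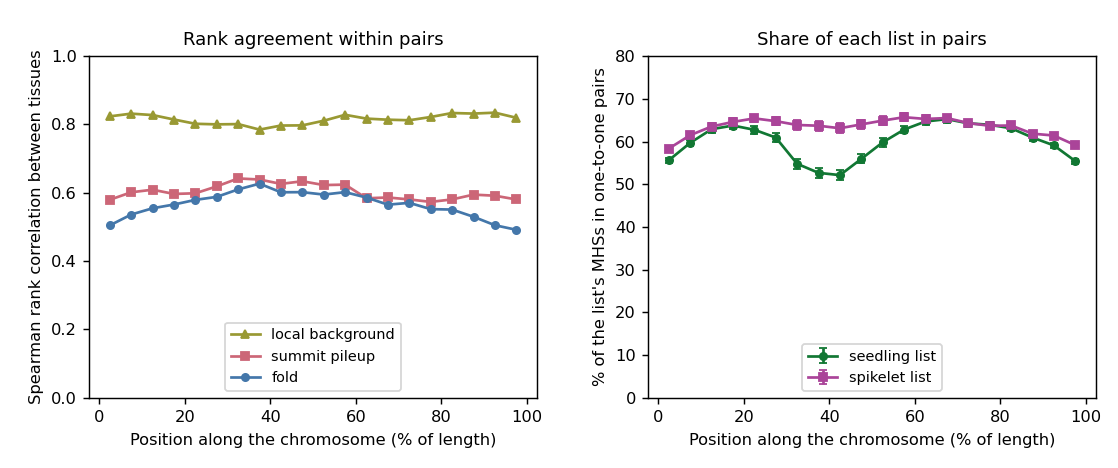
The left panel plots the Spearman rank correlation between the tissues for fold, summit pileup and local background in 20 bins of 5% of the chromosome length, and the right panel plots the percentage of each tissue's MHSs that were in a pair, with 95% Wilson intervals as bars. The rank correlation for fold rises from about 0.50 at the ends to 0.627 between 35% and 40%, and the seedling share dips to 52.1% between 40% and 45% while the spikelet share stays at 63.1%.

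Pairs tended to lie in clusters. The median distance from a pair to the next on the same sequence part was 17.4 kb, with 10% under 1.57 kb and 10% over 231 kb. Crowding went with lower folds and looser rank agreement. Of all pairs, 55243 had no further MHS of either tissue within 5 kb. Their median folds were 5.20 for seedling and 5.84 for spikelet peaks, and the rank correlation for fold was 0.583. Among the 9598 pairs with 5 or more further MHSs within 5 kb, the median folds were 3.74 and 3.77 and the rank correlation was 0.390. Pileups were higher in these crowded pairs, with medians of 40 and 41 reads against 30 and 32. The median background was 9.92 and 10.0 reads in the crowded pairs and 5.06 and 4.62 in the isolated ones. As described below, the background comes from a 10-kb window. Neighbours within 5 kb add to it, so lower folds in crowded pairs are partly built in. The log2 folds of crowded pairs were also less spread, with SDs of 0.390 (seedling) and 0.354 (spikelet) against 0.493 and 0.468. The rank correlation for pileup was 0.424 in crowded and 0.654 in isolated pairs. The part of background and spread in the looser rank agreement was not tested. The seedling had the lower fold in 62.2% of the isolated and 51.3% of the crowded pairs. The higher rank correlation of the interior was also seen among isolated pairs alone, with 0.538 at the ends and 0.613 in the interior. It was smaller among pairs with at least 3 further MHSs, with 0.421 and 0.462.

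The relation between the tissue differences of neighbouring pairs stepped down at 5 kb and, for background and pileup, weakened gradually beyond it. The ratio of backgrounds of a pair and that of the next had a rank correlation of 0.983 for pairs 0.5 to 1 kb apart, 0.830 at 4 to 5 kb, 0.617 at 5 to 6 kb and 0.121 beyond 100 kb. The ratio of pileups had a rank correlation of 0.242 at 0.5 to 1 kb, 0.225 at 4 to 5 kb, 0.129 at 5 to 6 kb and 0.041 beyond 100 kb. The ratio of folds changed sign. Its rank correlation was between −0.143 and −0.105 in each of the 5 classes from 0.5 to 5 kb and between 0.042 and 0.073 in the 4 classes from 5 to 10 kb. Within 5 kb, a pair that ranked high in its fold ratio thus tended slightly to have a neighbour that ranked low, although their pileup ratios tended to rank the same way. The recovered backgrounds above the genome-wide floor were multiples of 0.02 reads in 100% of peaks of both lists, within a tolerance of 0.0005 reads, or more in proportion for backgrounds above 10 reads. This is the step that reads extended to 200 bp give in a window of 10 kb, so that a neighbour within 5 kb of a summit lies in the window from which its background was taken. Fold ratios of close neighbours therefore share a measurement, and the part of that in the negative values was not tested. Folds of a seedling peak and of the next pair's spikelet peak had a rank correlation of 0.066, against 0.556 for the peaks of a pair.

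**Figure D5:**
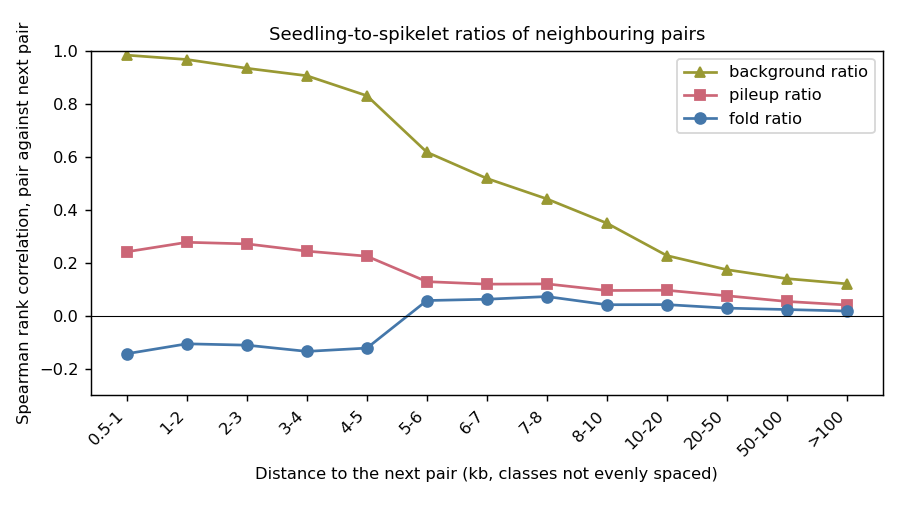
The Spearman rank correlation between a pair and the next pair on the same sequence part is plotted for the seedling-to-spikelet ratios of local background, pileup and fold, by distance class in kb (x axis, unevenly spaced classes). Between the classes of 4 to 5 and 5 to 6 kb, the rank correlation drops from 0.830 to 0.617 for the background ratio and turns from −0.121 to 0.058 for the fold ratio.

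The lower fold of the seedling was seen along most of the genome. In the 2568 windows of 5 Mb with at least 20 pairs, the median ratio of seedling to spikelet fold ran from 0.763 to 1.10 and was below 1 in 2343 windows. The median ratio of pileups ran from 0.735 to 1.32 and was below 1 in 1554, and the median ratio of backgrounds was above 1 in 2176. Adjoining windows were weakly alike, with a rank correlation of 0.117 for the fold ratio and 0.038 for the pileup ratio over 2412 pairs of windows. The lowest pileup ratio, 0.735 over 47 pairs, was between 325 and 330 Mb on part 1 of chromosome 2D, and the adjoining window from 320 to 325 Mb had 0.768 over 49 pairs. This stretch was singled out after its values were seen. The windows on either side of it had ratios of 1.01 and 1.00, over 58 and 46 pairs.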

How the data were processed

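MH-seq peaks of seedlings and spikelets of 'Chinese Spring' wheat were analysed as deposited. The authors used fastp for trimming, a filter on read length, and bowtie2 for mapping to IWGSC version 1.0. Sambamba for duplicates and a filter on mapping quality followed. Peaks were called on merged replicates with MACS2 2.0 (version from the submitters' processing notes). The score deposited by the authors is the whole part of 10 times the −log10 q. Their fold (a ratio to the local background), −log10 p-value and −log10 q-value refer to the summit.

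Peaks were paired as described and no peak was filtered out. The lists reached down to a −log10 q of 1.30 in the seedling and 1.34 in the spikelet, so they hold peaks weaker than the q threshold stated in the study's methods allows, and all were used. Pileup and background were solved from fold and p, which assumes the Poisson model of the peak caller. Coordinates are 1-based within sequence parts. Shares have 95% Wilson intervals and medians binomial order-statistic intervals, both for counting error only and treating pairs as independent. There is 1 list per tissue, so no p-value was computed. Named pairs were the first 3 by lower fold, by ratio in each direction, by shift, and by lower fold among identical bounds. Members, rules and measures were chosen with earlier results of these data known. The 5-Mb windows, the crowding classes and the comparison of background among pairs with large ratios were added after the values were seen. Pairing and recovery were tested on simulated data. Alternatives covered q, overlap, signal and the width of the ends. Software was scipy 1.17.1 and pandas 2.3.3 with numpy 2.4.6 under Python 3.11.15, and plots were drawn in matplotlib 3.10.9.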

Additional observations from a re-analysis of the deposited data

How the results depend on the processing

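The alternatives gave 32 values. In 6 the count differed by less than 1.5 times or the value lay in the reported interval, 26 lay outside, and none changed direction. The intervals are narrow at this number of pairs. When only peaks with a q up to 0.001 were paired, the median shift was 52 bp, summits lay within 50 bp in 49.4% of pairs, the median overlap was 71.7%, the median fold ratio 0.939 and the share in the ends 31.7%. With q up to 1e-05, these were 47 bp, 52.1%, 74.1%, 0.952 and 30.4%, the seedling peak was wider in 55.2%, the width ratio was 1.04 and the rank correlation for fold 0.544. With an overlap of at least 50% of both peaks, they were 47 bp, 52.4%, 74.3%, 0.930 and 31.7%, and the wider share was 52.5%, the width ratio 1.02 and the rank correlation 0.568. The numbers of pairs were 166582, 135795 and 149902. The rank correlation was 0.517 when ranked by −log10 q and 0.598 by pileup, and the median ratio of pileups was 0.966. The outermost 5% at either end held 17.4% of pairs and the outermost 20% held 55.4%, where even placement gives 10% and 40%. Both whole lists were concentrated at the ends as well, so this excess is not particular to the pairs. No paired analysis was possible because the lists carry no replicate numbers.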
